A study of Mus musculus with 2 samples.

Results

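The 10 myeloid lineage transcription factors described here are Cebpa, Cebpb, Cebpd, Cebpe, Gfi1, Spi1, Irf8, Klf4, Gata2 and Nr4a1. They were taken by symbol from a list of known regulators, and all 10 were among the 32285 genes counted. Single-cell RNA of total bone marrow was measured in 1 control library and 1 DKO library. The control carried the label WT, and the study calls it a littermate control. The study's methods describe such littermates as Ddx41 fl/fl, without VavCre and with intact cGas. The label itself names no floxed allele. The DKO library came from VavCre:Ddx41 fl/fl, cGAS-/- marrow, in which Cre under the Vav promoter deletes the helicase gene Ddx41 in blood cells, while the DNA sensor gene cGas is missing from every cell. Adult DKO and control mice were examined at 2 months of age, and the labels name no treatment. How many mice each library held is not given in the sources used here. VavCre is also active outside blood cells, in endothelium and oocytes, and cGas loss is present in the DKO library only, so the parts of the 2 deletions cannot be told apart.

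Blood cell fates are set by small groups of transcription factors that work in combination. Spi1 encodes PU.1, which myeloid cells of every kind need, and the C/EBP factors take over from one another as granulocytes mature, with C/EBPα in progenitors, C/EBPε at the stage when specific granules are made, and C/EBPβ and C/EBPδ in later and activated cells. Gfi1 is a repressor that favours neutrophils, while IRF8 and KLF4 favour monocytes and dendritic cells. GATA2 acts in stem cells, basophils and mast cells, and NR4A1 is required for Ly6C-low patrolling monocytes.

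After removal of empty droplets, damaged cells and doublets, the control library held 18551 cells (118249552 UMIs, median 4882 per cell) and the DKO library 13729 cells (114830668 UMIs, median 6904). A UMI is a molecular tag that marks 1 captured transcript. Cells were clustered without the 10 factors and without Ddx41 and Cgas, and the clusters were named from marker genes, so each class name stands for cells like that type by their RNA. The 12 myeloid classes held between 71 and 1509 control cells and between 43 and 1684 DKO cells, the smallest being Ly6C-low monocytes. In the named myeloid classes every marker was raised in both libraries except 1 of the 10 multipotent progenitor markers, Ly6a. Clusters led by Mmp8 (666 control and 687 DKO cells) and by Nrg1 (162 and 54 cells) met no class's rule and are called by those genes. The count of Ddx41 was 2394 UMIs in control and 919 in DKO cells, with a log2 ratio of -1.34 (95% interval -1.45 to -1.23), and it was lower in all 11 classes compared. Cgas had 1608 and 832 UMIs (log2 ratio -0.91), although reads of the 3' end need not lie in the deleted part. The libraries shared 79 cell barcodes, 0.567% of the DKO barcodes.

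Levels are counts per 1000000 UMIs of all genes in a class (CPM), and compare classes within a gene, not genes with each other. The intervals have 95% coverage of counting error, and do not include the spread between mice, which a single library of each genotype cannot give. For the same reason no test was run between genotypes, and each ratio compares these 2 libraries.

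The 10 factors divided the myeloid classes among them in both libraries. Cebpe led in early neutrophils, Cebpd in mature neutrophils, Irf8 in plasmacytoid dendritic cells, Klf4, Nr4a1 and Cebpb in Ly6C-low monocytes, and Gata2 and Cebpa in basophils. The intervals of Klf4 in Ly6C-low and Ly6C-high monocytes overlapped. Spi1 was highest in mature neutrophils (785 and 729 CPM), but there it was not apart from Ly6C-low monocytes (681 and 684 CPM). For Gfi1 the top was shared, with 41.2 CPM in both granulocyte-monocyte progenitors and early neutrophils of the control library, and 51.6 and 44.8 CPM in the DKO library. RNA that leaks from broken cells could account for at most 1.66% of the control level of any factor in its leading class, as judged from the empty droplets and the hemoglobin share of the class. Some leads changed with the processing. With leaked RNA subtracted, Cebpe led in immature neutrophils and Klf4 in the Nrg1-led cluster, in both libraries. With only barcodes above the order-of-magnitude threshold, Spi1 led in Ly6C-low monocytes, and in the control library Klf4 led in Ly6C-high monocytes.

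**Figure D1:**
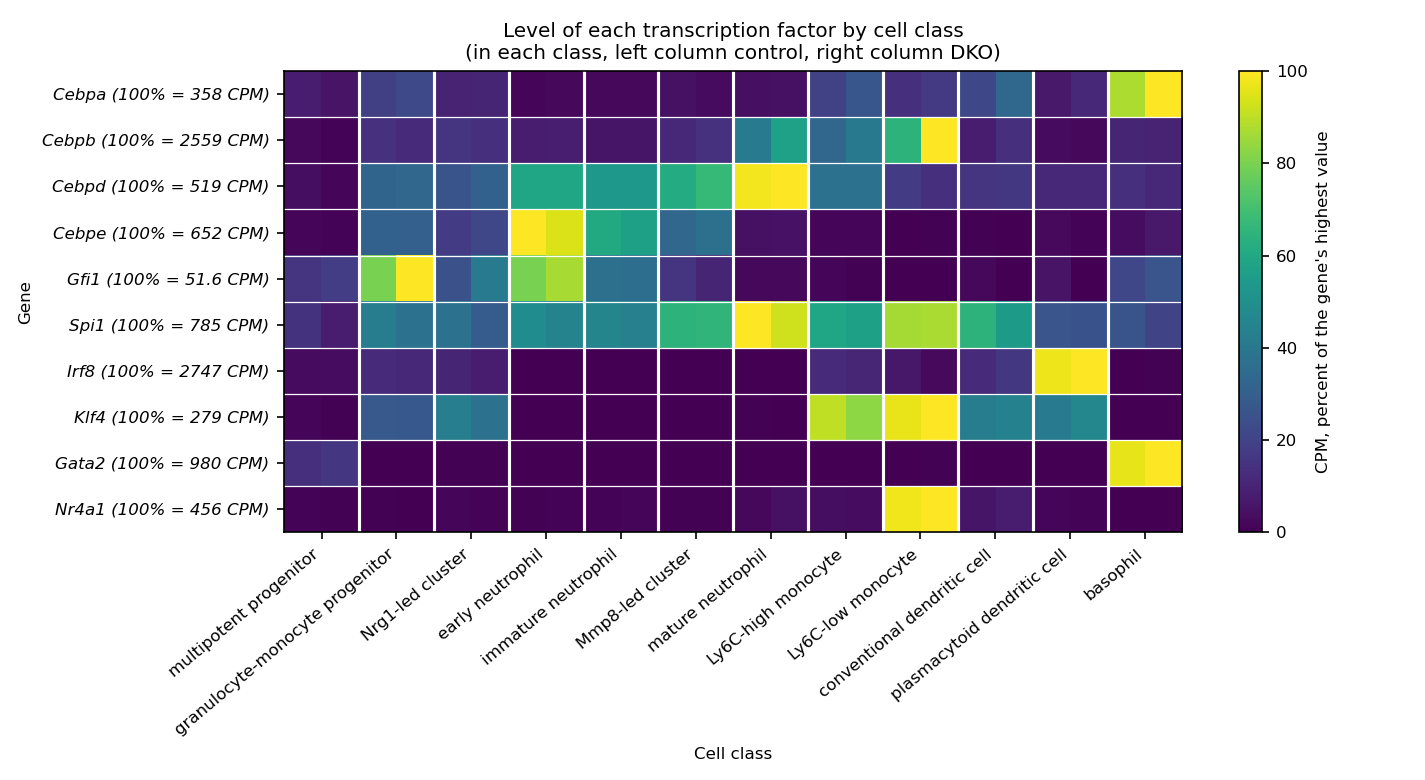
Level of each of the 10 factors (rows) in 12 myeloid classes (columns, control left and DKO right), in percent of the highest CPM of that gene, which is printed beside its name. Each factor has its bright cells in 1 to a few classes, and the control and DKO columns of a class are alike in most rows.

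The C/EBP factors replaced one another along the neutrophil series, which ran from granulocyte-monocyte progenitors through early neutrophils (marked by Fcnb and Chil3), immature neutrophils (Ltf, Camp, Ngp) and the Mmp8-led cluster to mature neutrophils (Retnlg, Il1b, Cxcr2). Cebpa, which starts the granulocyte programme, stood at 67.6 CPM in control progenitors and at 79.0 CPM in DKO progenitors, then at 4.20 and 7.75 CPM in early neutrophils. Cebpe, the regulator of specific granules, peaked there, with 652 CPM in control (interval 631 to 673) and 617 CPM in DKO early neutrophils (597 to 637). It was lower in immature neutrophils (396 and 370 CPM), in the Mmp8-led cluster (216 and 241 CPM) and in mature neutrophils (29.2 and 31.6 CPM). The intervals of these stages did not overlap in either library. Granulocyte-monocyte progenitors had 203 and 199.9 CPM of Cebpe, which was not apart from the Mmp8-led cluster in the control library. Gfi1 went down on the same path, from 19.0 and 18.6 CPM in immature to 1.17 and 1.07 CPM in mature neutrophils.

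Cebpb and Cebpd, the C/EBP factors of late and activated cells, ran the other way. Cebpb dipped from 365 CPM in control granulocyte-monocyte progenitors to 208 CPM in early and 143 CPM in immature neutrophils, then stood at 296 CPM in the Mmp8-led cluster and 1040.5 CPM in mature neutrophils. In the DKO library the same series read 316, 214, 143, 362 and 1462 CPM. Cebpd had no dip of that size, with 305, 276, 319 and 511 CPM from early to mature control neutrophils, and 307, 276, 347 and 519 CPM in the DKO library. Spi1 was present at every stage, at 382 CPM in early and 785 CPM in mature control neutrophils and at 352 and 729 CPM in DKO neutrophils. Hemoglobin took 13.4% of the UMIs in control and 16.8% in DKO immature neutrophils, close to the 14.5% of empty droplets, so the levels of this stage may include leaked RNA, whose part was not tested. The limits for leaked Cebpb there, 164 and 178 CPM, were above its whole level. Those for Spi1 were 114 of 356 CPM in control and 123 of 343 CPM in DKO cells. These limits are upper bounds, and leaked RNA did not reach them for every factor in this stage. Irf8 had 4.53 and 2.52 CPM in all, against limits of 151 and 163 CPM. Klf4 had 0.85 and 0.34 CPM, against limits of 25.6 and 27.7 CPM.

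**Figure D2:**
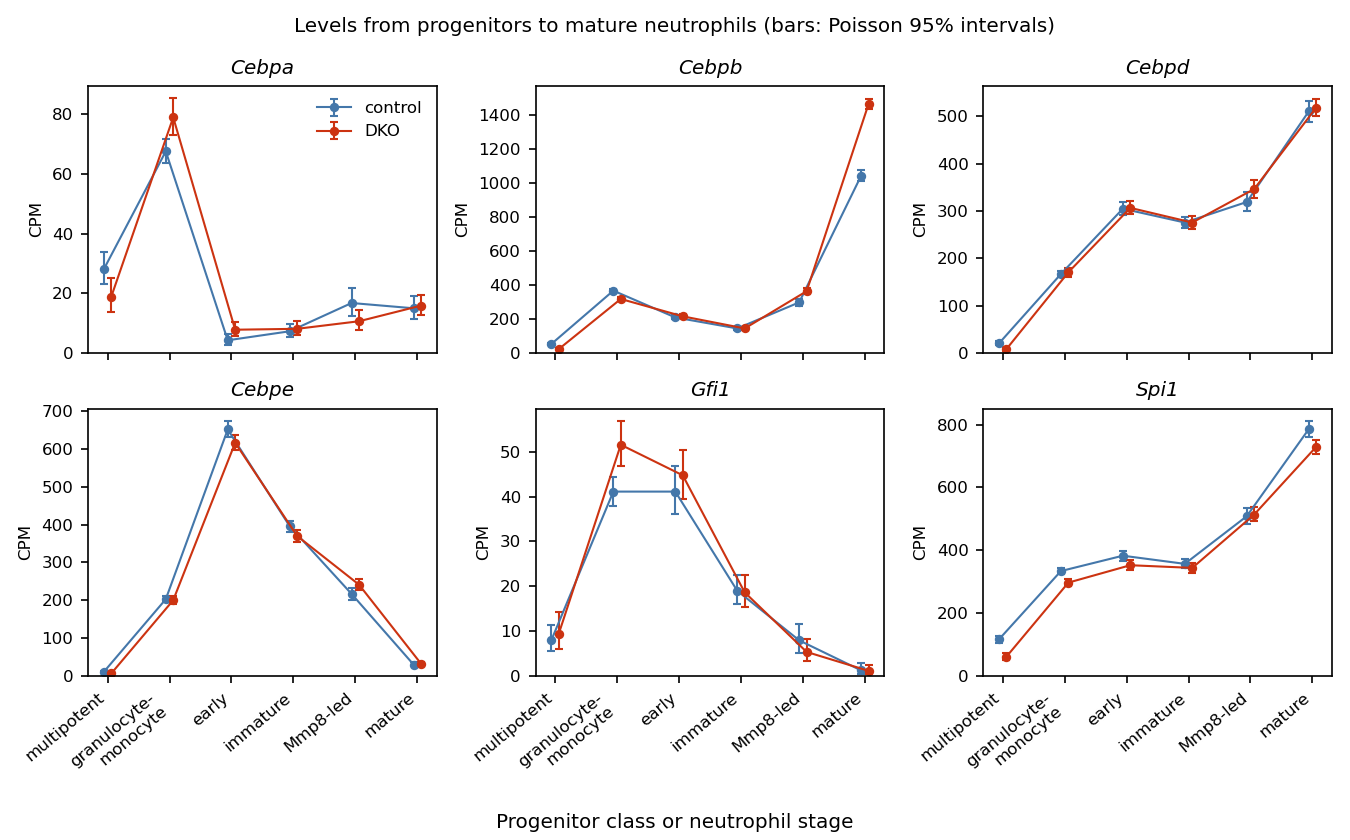
CPM (y axis) of 6 factors from progenitors to mature neutrophils (x axis), for control (blue) and DKO (red), with Poisson 95% intervals as bars. Cebpe peaks in early neutrophils at 652 and 617 CPM, while Cebpb ends at 1040.5 and 1462 CPM in mature neutrophils.

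Granulocyte-monocyte progenitors (699 control and 289 DKO cells), the common source of neutrophils and monocytes, held 2 larger clusters with opposite sets of factors and a small one with both. In the cluster led by Elane, Prtn3 and Ms4a3 (296 control and 132 DKO cells), Gfi1 stood at 92.0 and 99.2 CPM and Cebpe at 531 and 469.9 CPM, whereas Irf8 was at 4.60 and 3.32 CPM and Klf4 at 1.20 and 0.738 CPM. In the cluster led by Mpo, Ctsg and Gria3 (334 and 149 cells), Irf8 stood at 525 and 491 CPM and Klf4 at 115 and 119 CPM, with Gfi1 at 15.3 and 27.6 CPM and Cebpe at 31.1 and 55.2 CPM. In these clusters the neutrophil factors were high where the monocyte and dendritic cell factors were low, and none of the 4 had been used for clustering. The small cluster, led by Igkv4-50, Iglv1 and Ctsg (69 control and 8 DKO cells), held both sets when summed over its cells. It had Irf8 at 333 and 202 CPM, Klf4 at 114 and 66.2 CPM, Cebpe at 127 and 206 CPM and Gfi1 at 24.6 and 23.4 CPM. Igkv4-50 and Iglv1 are immunoglobulin genes, and the part of RNA from other cells or of doublets in this cluster was not tested. Cebpb was shared, at 341 and 281 CPM in the Elane-led cluster and at 371 and 330 CPM in the Mpo-led cluster. Cebpa stood at 44.4 and 59.4 CPM and at 83.4 and 91.1 CPM in these clusters.

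The UMIs of single cells were split in a similar way. Of the 265 control progenitors with a Gfi1 UMI, 31.3% also had an Irf8 UMI, against 67.1% of the other 434, although the Gfi1 cells were the deeper ones (median 24024 against 20910 UMIs). In the DKO library the shares were 19.3% of 135 cells and 72.1% of the remainder. Leaked RNA alone could give an Irf8 UMI to at most 13.8% of control cells and 8.15% of DKO cells with Gfi1, so part of the 31.3% and 19.3% may be background. Klf4 was found in 7.55% of the control cells with Gfi1 and in 44.2% of those without it, and in 8.15% and 55.8% of DKO cells, with limits for leaked Klf4 of 2.52% and 1.44% in the cells with Gfi1. In contrast, Irf8 and Klf4 were found together, with Klf4 in 55.3% of control cells with Irf8 and in 1.54% of those without it (68.6% and 1.97% in the DKO library). Cebpe and Gfi1 paired likewise, with Gfi1 in 58.4% of control cells with Cebpe and 14.4% of those without it. Cells of 1 library are not replicates of a condition, and these shares describe the 2 libraries.

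**Figure D3:**
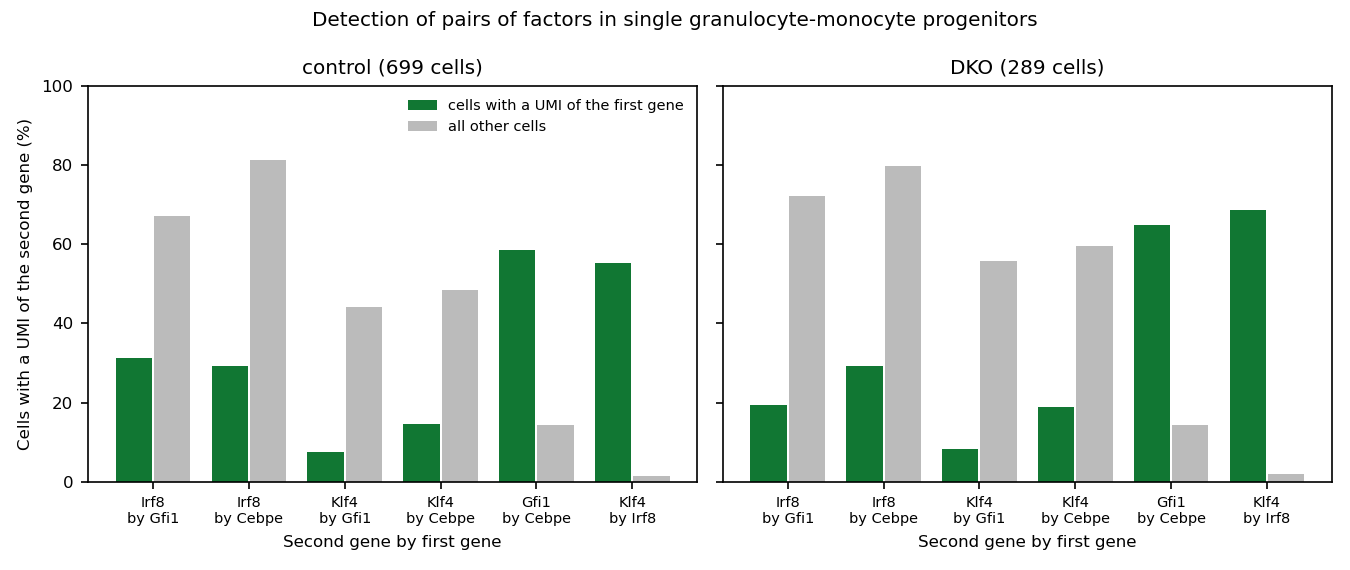
Percent of granulocyte-monocyte progenitors with a UMI of a second factor (y axis), among cells with a UMI of the first factor (green) and among all other cells (grey), for control (left) and DKO (right). Irf8 and Klf4 are found together, and each is less frequent in cells with Gfi1 or Cebpe.

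The Nrg1-led cluster also expressed Prtn3, Elane and the monocyte marker F13a1. Its single cells were split, with an Irf8 UMI in 36.7% of control cells with Cebpe and 77.9% of those without it. The DKO shares were 29.4% and 73.0%. For Klf4 the shares were 26.5% and 62.8% in control, and 17.6% and 62.2% in DKO cells. The limits for leaked Irf8 were above each Irf8 share (93.2% and 83.6% in control cells). Those for leaked Klf4 were 44.4% and 33.3% in control, and 58.5% and 44.9% in DKO cells. They were above the Klf4 shares of cells with Cebpe and below those of cells without it. Summed over its cells, the cluster carried both sets. It had Irf8 at 287 and 214 CPM, Klf4 at 119.7 and 106 CPM and Cebpe at 113 and 139.6 CPM. Hemoglobin took 20.6% of its control and 21.9% of its DKO UMIs, above the 14.5% of empty droplets, and the part of leaked RNA in its levels was not tested. Multipotent progenitors (305 control and 113 DKO cells), the earliest class, had Gata2 as their distinguishing factor, at 133 CPM (interval 122 to 145) in control and 154 CPM (139 to 170) in DKO cells. Of the 12 classes, none except basophils and this one had over 5.55 CPM of Gata2 in either library. Spi1, Irf8 and Cebpa were present in multipotent progenitors at 115, 78.9 and 28.1 CPM in the control library.

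In Ly6C-high monocytes (843 control and 472 DKO cells), the inflammatory monocytes of the marrow, Klf4 stood at 252 and 231 CPM, Irf8 at 342 and 299 CPM and Cebpb at 843 and 1037 CPM. In Ly6C-low monocytes (71 and 43 cells), the patrolling cells that line vessels, Nr4a1 reached 446 CPM (interval 364 to 542) in control and 456 CPM (367 to 560.5) in DKO cells. Its next level was 25.0 and 34.8 CPM, in conventional dendritic cells, and Ly6C-high monocytes had 16.9 and 15.03 CPM. Within Ly6C-high monocytes, Nr4a1 stood at 26.3 and 25.1 CPM in the cluster led by Fn1, Arhgef37 and S100a4, and at 5.48 and 1.97 CPM in the cluster led by Fn1, Plcb1 and F13a1, which in turn had the higher Irf8 (438 and 388 CPM against 263 and 231 CPM) and Klf4 (313 and 319 CPM against 203 and 163 CPM). Cebpb was at its highest in Ly6C-low monocytes, with 1653 CPM (1490 to 1829) in control and 2559 CPM (2341 to 2792) in DKO cells. Klf4 had 269.6 and 279 CPM there, which was not apart from its level in Ly6C-high monocytes. The Ly6C-low levels depended on where the class ended: at a finer clustering (resolution 2.0) it held 110 control and 75 DKO cells, with Nr4a1 at 288 and 249.95 CPM, Cebpb at 1300.1 and 1871 CPM and Klf4 at 265 and 185 CPM. Klf4 was then highest in Ly6C-high monocytes, at 267 and 249 CPM. Fewer than 50 DKO cells were Ly6C-low monocytes, and they were left out of the counts of differences given below.

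Nr4a1 and Cebpb are genes that cells switch on within minutes of a signal through CREB, a factor that binds the cAMP response element, whose half-site is TGACG. For that reason the promoters of the 3 factors that led in Ly6C-low monocytes are shown. For Klf4 this lead held at the main clustering and not at resolution 2.0. Each promoter is the 250 bases before the RefSeq start (GRCm38.p6, 5' to 3' on the strand of the gene), with TGACG on either strand in capitals. Of 32851 promoters of this length, 17.8% held TGACG. Promoters were found for 7 of the 10 factors (10 promoters in all), and those of Nr4a1, Cebpb and Klf4 were the 3 that held it. A match of letters is a description and does not show that a factor binds there.

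Nr4a1 (chr15:101266596-101266845, plus strand, 4 half-sites): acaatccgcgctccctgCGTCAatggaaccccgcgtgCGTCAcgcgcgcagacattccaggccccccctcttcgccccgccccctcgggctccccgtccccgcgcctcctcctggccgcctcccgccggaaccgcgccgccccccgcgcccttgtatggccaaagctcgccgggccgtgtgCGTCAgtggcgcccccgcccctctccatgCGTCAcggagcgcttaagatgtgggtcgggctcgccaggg
Cebpb (chr2:167688665-167688914, plus strand, 3 half-sites): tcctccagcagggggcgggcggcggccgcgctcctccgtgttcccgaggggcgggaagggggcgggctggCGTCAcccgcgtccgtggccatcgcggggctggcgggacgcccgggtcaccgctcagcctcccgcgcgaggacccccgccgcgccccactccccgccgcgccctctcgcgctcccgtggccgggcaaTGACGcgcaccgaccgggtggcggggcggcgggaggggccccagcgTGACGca
Klf4 (chr4:55532476-55532725, minus strand, 1 half-site): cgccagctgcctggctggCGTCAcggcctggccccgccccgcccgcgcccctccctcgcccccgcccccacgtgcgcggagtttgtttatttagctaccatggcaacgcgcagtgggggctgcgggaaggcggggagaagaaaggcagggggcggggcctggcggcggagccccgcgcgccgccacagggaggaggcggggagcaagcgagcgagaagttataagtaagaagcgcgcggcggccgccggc

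The half-sites began 233, 213, 69 and 40 bases before the Nr4a1 start and 180, 53 and 7 bases before the Cebpb start. The Cebpb gene itself is a single exon of 1504 bases (chr2:167688915-167690418, plus strand) and directly follows the printed promoter, whereas the printed Nr4a1 promoter lies inside the span of its longest annotated transcripts (chr15:101254269-101274795, plus strand). Of the other promoters, those of Cebpa and of Irf8 (the upstream of its 2) held a TATAAA box 30 and 31 bases before the start, a box found in 12.4% of promoters.

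In plasmacytoid dendritic cells (537 control and 166 DKO cells), the main source of type I interferon in virus infection, Irf8 stood at 2674 CPM (interval 2619 to 2729.9) in control and 2747 CPM (2667 to 2829) in DKO cells. On the log2 scale DKO over control was 0.04 (-0.01 to 0.09). After each cell was thinned to 2000 UMIs, 94.7% of control plasmacytoid dendritic cells and 152 of the 160 DKO cells deep enough had an Irf8 UMI. In late erythroid cells, which should lack Irf8 and had similar depth (median 5360.5 and 8052 UMIs against 5207 and 8156.5), the thinned shares were 0.895% and 0.474%, and before thinning they were 2.45% and 1.37% against 96.1% and 98.8%. The class held a cluster led by Siglech, Grm8 and Cox6a2, with Irf8 at 3301 and 3407 CPM and Klf4 at 7.48 and 6.18 CPM. Its other cluster, led by Gm34680, Cd7 and Cox6a2, had Irf8 at 2002 and 2090.1 CPM and Klf4 at 228 and 252 CPM. Conventional dendritic cells (137 and 73 cells) had the second-highest Irf8 of the DKO library, 449.7 CPM against 323 CPM in the control library, where Ly6C-high monocytes and granulocyte-monocyte progenitors stood above them.

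Basophils (115 control and 67 DKO cells) carried Gata2 at 943 CPM (interval 881 to 1008) in control and 980 CPM (913 to 1051) in DKO cells. They also had the highest Cebpa, 314 CPM (279 to 352.5) and 358 CPM (317 to 401). After thinning, 85.6% of control basophils had a Gata2 UMI and 54.8% a Cebpa UMI, against 96.5% and 76.5% before it and 0.168% and 0.242% of thinned late erythroid cells. Most UMIs of late erythroid cells were hemoglobin, so this background is weak. Of the 88 control basophils with a Cebpa UMI, 98.9% also had Gata2, and of the others, which were shallower (median 2462 against 5583 UMIs), 88.9% did. Klf4 and Nr4a1 had 0 UMIs in the basophils of either library, where the floor of 3 counts per library corresponds to 3.28 CPM in control and 3.74 CPM in DKO cells. For Cebpa, the step down to the next class, conventional dendritic cells (77.4 and 121 CPM), was larger than the counting error in both libraries, and the remaining 10 steps in its order were not.

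The share of factor and class pairs that differed between the genotypes was near that of all genes. Of 110 pairs of a factor and a class, 62 had a mean of at least 20 CPM over both libraries, and 6 of these differed by 1.5-fold or more, 4 higher and 2 lower in DKO. That is 9.68%, against 12.0% of all gene and class pairs at the same level. With median-of-ratios scaling, which lowered the ratios by up to 0.19, the split was 3 higher and 4 lower. The median log2 ratio over the 62 pairs was 0.02. The intervals of 29 pairs held 0, which does not show equal levels, and those of the other 33 did not. The 48 pairs under 20 CPM were left out of these counts for their low level, and whether the class uses the factor was not tested. For some of them the interval did not hold 0. Among these, Cebpd in multipotent progenitors was lower in DKO (19.9 and 7.77 CPM) and Cebpa in early neutrophils was higher (4.20 and 7.75 CPM).

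**Figure D4:**
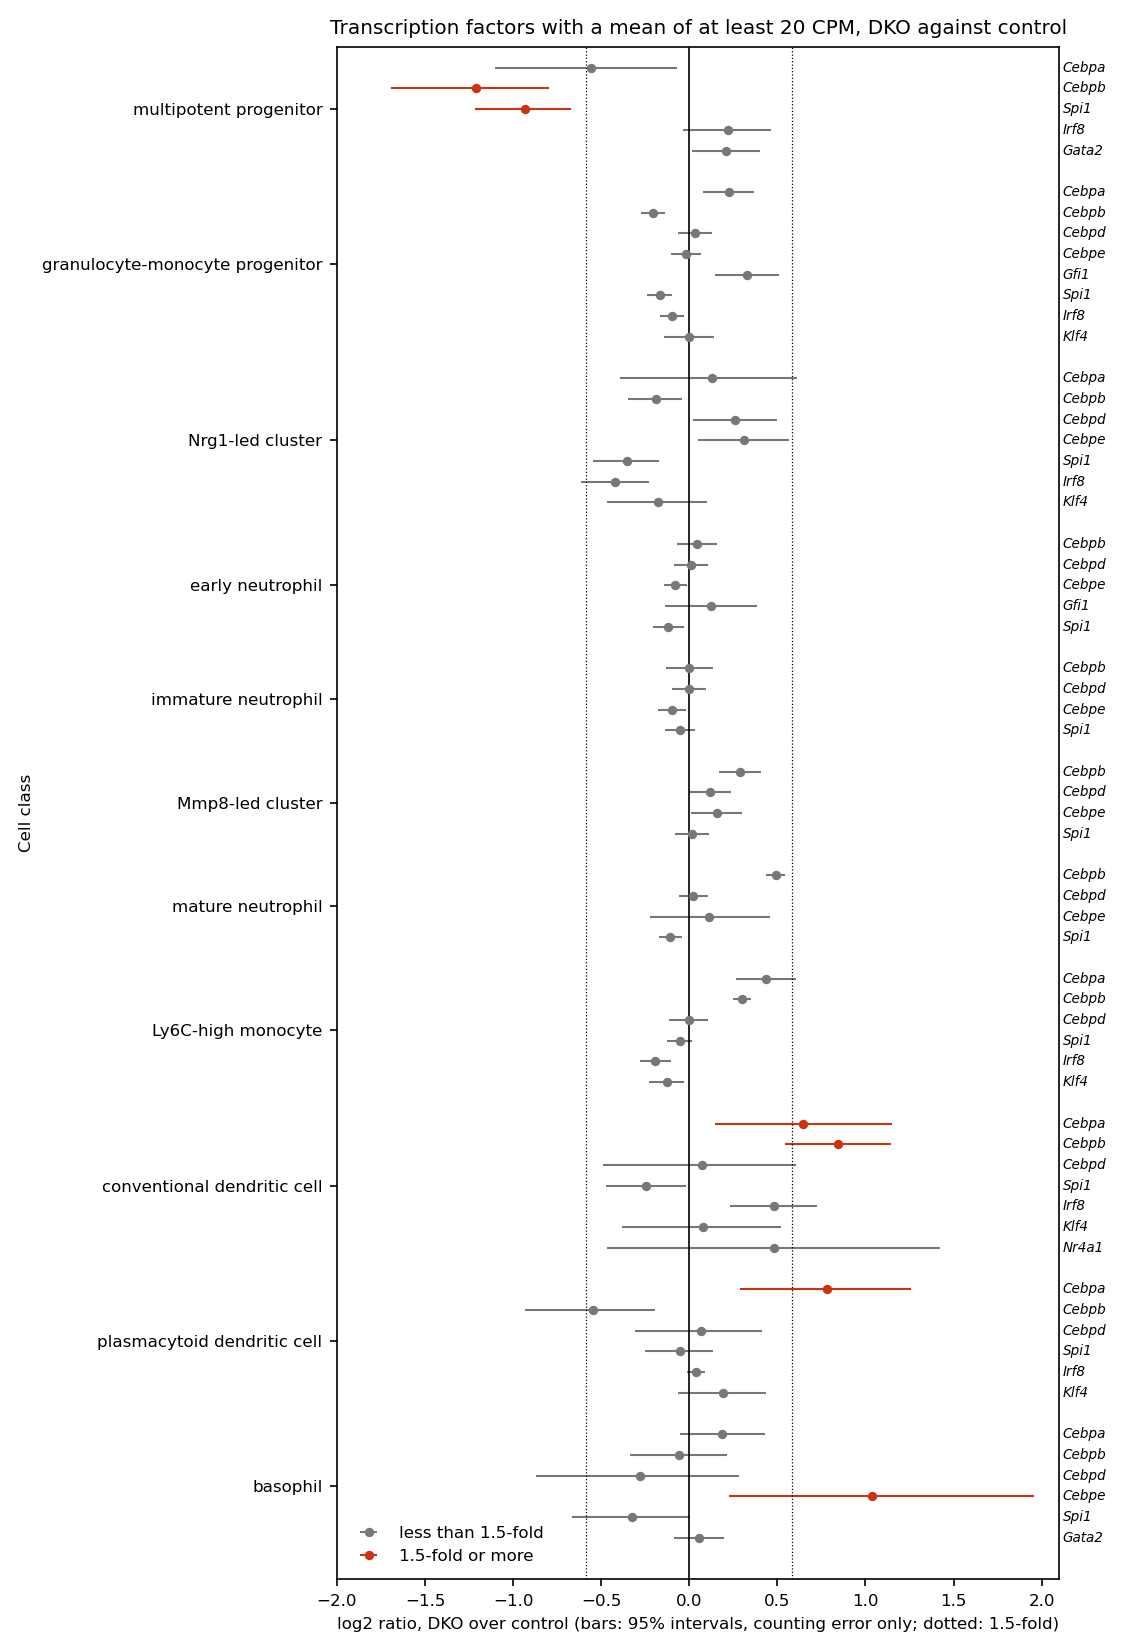
Log2 ratio of DKO over control (x axis) for the 62 factor and class pairs with a mean of at least 20 CPM, grouped by class (y axis), with 95% counting intervals as bars and 1.5-fold as dotted lines. The 6 pairs in red pass 1.5-fold, with Cebpb in multipotent progenitors lowest at -1.21 and Cebpe in basophils highest at 1.04.

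In multipotent progenitors, 2 of 5 factors were lower in DKO by 1.5-fold or more, Cebpb and Spi1, against 5.66% of all genes in either direction and 2.92% lower. Cebpb had 209 UMIs in control and 54 in DKO cells, 51.9 and 22.1 CPM, a log2 ratio of -1.21 (interval -1.69 to -0.79). Spi1 had 465 and 147 UMIs, 115 and 60.1 CPM, a ratio of -0.93 (-1.22 to -0.67). Gata2, the factor most typical of the class, stood at 133 and 154 CPM (0.21). RNA of other cells moved in the same direction: the summed level of 16 neutrophil markers, none of them at 0, was 1595 CPM in control and 616 CPM in DKO multipotent progenitors, and their part in the result was not tested. Leaked RNA could account for at most 29.3 of the 51.9 control CPM and all of the 22.1 DKO CPM of Cebpb (limit 24.8 CPM), and for 20.2 of 115 and 17.2 of 60.1 CPM of Spi1. Without the 9 control and 3 DKO cells in which granule genes took 0.5% of UMIs or more, a choice made after the values were seen, the ratios were -1.21 for Cebpb and -0.88 for Spi1, and the granule share of the cells left was still unequal (0.0514% in control and 0.0228% in DKO cells).

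In granulocyte-monocyte progenitors 0 of 8 factors passed 1.5-fold, against 8.98% of all genes. The largest ratio was that of Gfi1, 0.33 (interval 0.14 to 0.51), and Cebpb had the lowest, -0.21 (-0.28 to -0.14). Within the Mpo-led cluster of this class the neutrophil factors stood higher in DKO, Cebpe with 31.1 and 55.2 CPM (ratio 0.83, 0.58 to 1.07) and Gfi1 with 15.3 and 27.6 CPM (0.85, 0.50 to 1.20), a comparison singled out after its values were seen. In the Elane-led cluster they had ratios of -0.18 and 0.11. In the Nrg1-led cluster 0 of 7 factors passed 1.5-fold, against 12.0% of all genes, with Irf8 lowest at -0.42 (-0.62 to -0.23).

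Along the neutrophil series none of the factors tested passed 1.5-fold: 0 of 5 in early neutrophils (9.05% of all genes), 0 of 4 in immature neutrophils (8.34%), 0 of 4 in the Mmp8-led cluster (8.57%) and 0 of 4 in mature neutrophils (12.2%). In early and immature neutrophils the ratios ran from -0.12 for Spi1 to 0.12 for Gfi1. Cebpb in mature neutrophils came nearest to the limit, with 4457 UMIs in control and 8222 in DKO cells, 1040.5 and 1462 CPM, a log2 ratio of 0.49 (0.44 to 0.54). The share of mature neutrophils with a Cebpb UMI after thinning was 82.2% (79.8 to 84.4) in control and 89.2% (87.5 to 90.7) in DKO cells, against 85.9% and 93.5% before thinning and 1.45% and 0.71% of thinned late erythroid cells. Late erythroid cells, mostly hemoglobin, are a weak background here too. Thinning left out 406 control and 164 DKO mature neutrophils with fewer UMIs.

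The libraries filled different clusters of mature neutrophils. Most DKO cells were in the cluster led by Cstdc4, Slc7a11 and Arg2 (92 control and 851 DKO cells) and the one led by Il1b, Pla2g7 and Fgl2 (316 and 575 cells), and most control cells in the clusters led by Ifitm1, Cstdc4 and Wfdc17 (647 and 155 cells) and by Retnlg, Mmp8 and Prok2 (417 and 88 cells). Cebpb was higher in DKO in each of the 5 clusters. It stood at 915 and 1405 CPM in the Slc7a11 cluster (ratio 0.61, 0.45 to 0.79), at 1150.1 and 1566 CPM in the Ifitm1 cluster, at 766 and 1021 CPM in the Retnlg cluster, at 526 and 940.1 CPM in the cluster of interferon-induced genes led by Ifit3 (37 and 15 cells, ratio 0.85, 0.22 to 1.44), and at 1504 and 1637 CPM in the Il1b cluster (0.12, 0.02 to 0.23). With the same mix of clusters in both libraries, an alternative chosen after the data were seen, the Cebpb ratio was 0.40, and that of Cebpe, which stood at 29.2 and 31.6 CPM over the class, changed from 0.11 to 0.81. Nr4a1 in mature neutrophils had 10.5 CPM in control and 20.6 CPM in DKO cells. In the Il1b cluster, 1 of the 5, it was at 48.8 and 48.6 CPM. The part of the cluster mix in the Nr4a1 difference over the class was not tested.

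**Figure D5:**
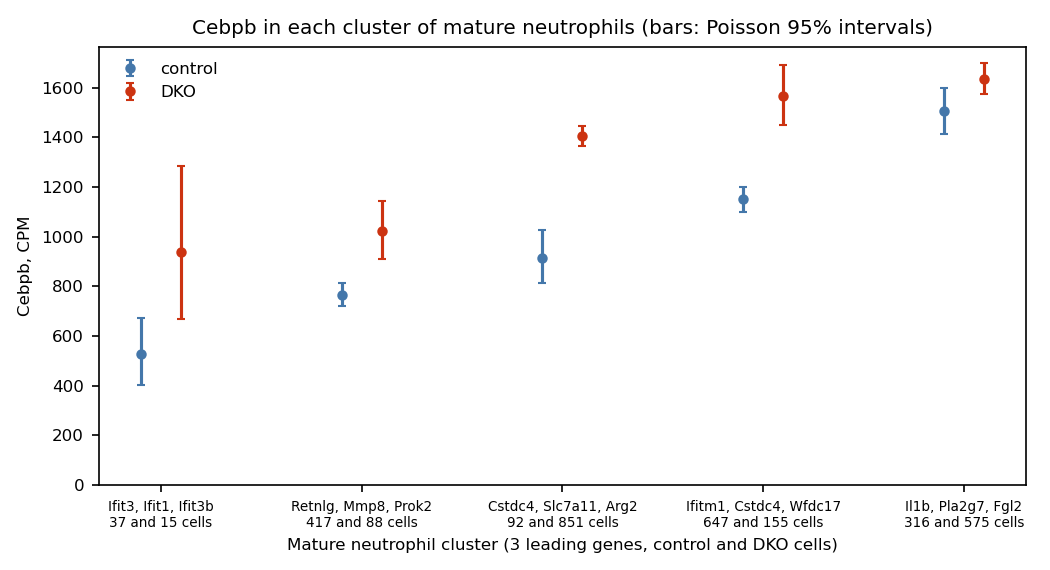
Cebpb CPM (y axis) in the 5 clusters of mature neutrophils (x axis, with leading genes and numbers of control and DKO cells), control in blue and DKO in red, with Poisson 95% intervals as bars. The DKO value is the higher one in each cluster, with the smallest ratio in the Il1b cluster (1637 against 1504 CPM) and the largest in the small Ifit3 cluster (940.1 against 526 CPM).

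In Ly6C-high monocytes 0 of 6 factors passed 1.5-fold, against 6.49% of all genes. Cebpa had 70.7 and 95.7 CPM (ratio 0.44, interval 0.27 to 0.61) and Cebpb a ratio of 0.30 (0.25 to 0.35), while Irf8 and Klf4 had -0.19 and -0.13. In Ly6C-low monocytes, which were not counted, Cebpb had 374 control and 505 DKO UMIs (0.63, 0.43 to 0.83) and Irf8 40 and 14 UMIs (177 and 70.9 CPM, ratio -1.25), while Nr4a1 had 101 and 90 UMIs (0.03, -0.40 to 0.46). At resolution 2.0 the Irf8 ratio was -0.31 (-0.78 to 0.14), with 196 and 158 CPM. Cebpb was the higher one in DKO in mature neutrophils and in both monocyte classes, and the lower one in DKO in multipotent and granulocyte-monocyte progenitors.

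In conventional dendritic cells 2 of 7 factors were higher in DKO, against 29.2% of all genes in either direction and 19.7% higher. Cebpa had 65 and 73 UMIs, 77.4 and 121 CPM (ratio 0.64, interval 0.14 to 1.15), and Cebpb 166 and 214 UMIs, 198 and 355 CPM (0.84, 0.55 to 1.15). With doublets kept in the clustering the Cebpb ratio turned to -0.10. The Cebpa ratio was changed by 7 of 11 alternatives and was under 1.5-fold in 3 of these 7, among them median-of-ratios scaling (0.52). In plasmacytoid dendritic cells 1 of 6 factors was higher, Cebpa with 81 and 67 UMIs, 24.1 and 41.3 CPM (0.78, 0.29 to 1.26; 0.55 with doublets kept, under 1.5-fold), against 14.1% of all genes in either direction and 10.7% higher. Cebpb had a ratio of -0.55 in this class, with opposite directions in its clusters, 129 and 52.9 CPM in the Cd7 cluster and 27.0 and 50.7 CPM in the Siglech cluster. The 16 neutrophil markers summed to 3251 and 1307 CPM in plasmacytoid dendritic cells, and their part in these values was not tested. In basophils 1 of 6 factors was higher, Cebpe with 19 and 35 UMIs, 20.8 and 43.6 CPM (1.04, 0.22 to 1.96), against 16.6% of all genes in either direction and 8.81% higher. The Cebpe UMIs were in 4 of 115 control and 4 of 67 DKO basophils. Those cells were deeper than the others (median 19800.5 against 4726 UMIs in control, 21997.5 against 7632 in DKO). The counting interval does not include the spread between so few cells. The Cebpe ratio was 2.24 with cells weighted equally. Leaked RNA could account for at most 9.74 of the 20.8 and 16.1 of the 43.6 CPM, and of the granule genes in basophils Prtn3 had 314 and 105 CPM and Ltf 176 and 81.0 CPM, whose part in the Cebpe ratio was not tested. Gata2 and Cebpa in basophils had ratios of 0.06 and 0.19.

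The genes these factors act on and with were followed through 6 lists of known genes, with the same limit of 1.5-fold and at least 20 CPM in each class. Over all genes and the 11 classes, 7.93% of pairs were higher and 4.12% lower. Of 40 other myeloid transcription factors, 33 pairs of a gene and a class were higher and 13 lower of 267 tested, with class medians of the log2 ratio from 0.00 to 0.50. In conventional dendritic cells 10 of 29 were higher and 1 lower (19.7% and 9.52% of all genes), with the interferon-induced regulator Irf7 at 223 and 38.2 CPM (-2.49). Runx1, a partner of PU.1 and the C/EBP factors, stood at 343 and 531 CPM in early neutrophils (0.63) and at 199 and 327 CPM in immature neutrophils (0.72).

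Of the C/EBP-dependent granule and receptor genes, 16 pairs were higher and 51 lower of 188, with lower ones also in classes that do not make granules. In multipotent progenitors 8 of 13 were lower and 0 higher (2.92% and 2.73% of all genes; median -1.13, against 0.06 for all genes), with the lysozyme gene Lyz2 at 498 and 99.8 CPM. In plasmacytoid dendritic cells 12 of 16 were lower and 1 higher (3.49% and 10.7% of all genes; median -1.04), with the elastase gene Elane at 156 and 4.32 CPM. In early neutrophils, which make granules, 3 of 18 were lower and 1 higher (1.29% and 7.76% of all genes). Elane had 257 and 98.2 CPM and Prtn3 339 and 111 CPM there. These 2 genes led a cluster of granulocyte-monocyte progenitors, an earlier stage, and Prtn3 was also lower in basophils (314 and 105 CPM). The part of RNA from other cells in these values was not tested. Cebpe, the regulator of specific granules, had a ratio of -0.08 in early neutrophils, and its link to Elane and Prtn3 was not tested.

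Of the IRF8-dependent genes, 10 pairs were higher and 15 lower of 79. In plasmacytoid dendritic cells, where the ratio of Irf8 was 0.04, 3 of 13 were higher and 0 lower (10.7% and 3.49% of all genes), with Ciita, the master regulator of MHC class II, at 25.9 and 58.6 CPM (1.18). In granulocyte-monocyte progenitors 4 of 9 were lower and 0 higher (1.58% and 7.4% of all genes), with the class II invariant chain gene Cd74 at 101 and 23.9 CPM (-2.07) beside an Irf8 ratio of -0.10. Of 36 pairs from the Ly6C-low monocyte genes 6 were higher and 2 lower, and of 26 from the basophil and mast cell genes of GATA2 4 were higher and 4 lower. In basophils 1 of these 11 was lower and 0 higher (7.84% and 8.81% of all genes), namely the stem cell factor receptor gene Kit at 54.7 and 26.2 CPM. Genes that dissociation of tissue can switch on were higher in 6 and lower in 21 of 109 pairs. In multipotent progenitors, where Cebpb and Spi1 were lower, 7 of 10 of them were lower and 0 higher (2.92% and 2.73% of all genes), with Ier3 at 37.7 and 13.5 CPM and Junb at 56.4 and 32.7 CPM, and their part in the result was not tested.

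The genes whose pattern was most like that of a factor were found over 40 points, made of 21 classes of the whole marrow in the 2 libraries with at least 50 cells, by Pearson's r of log2(CPM + 5) among 10572 genes. The classes share their library and its depth, so r is given as a description. Gata2 was closest to Slc18a2, a transporter of histamine-storing vesicles (r = 0.97), Klf4 to Tifab (0.96), Cebpe to the granule genes Camp and Ngp (0.95 and 0.95), Cebpd to Mtus1 (0.94) and Irf8 to Ly86 (0.94). Cebpb was closest to Cask (0.91), Cebpa to the chemokine gene Ccl9 (0.88), Nr4a1 to Ace (0.86) and Gfi1 to Tmem216 (0.82). Camp, Ngp and Ace were among the markers used to name classes. Among the factors themselves, r was highest for Cebpb with Cebpd (0.86), Irf8 with Klf4 (0.85) and Cebpb with Spi1 (0.84), and lowest for Gata2 with Nr4a1 (-0.32).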

How the data were processed

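The deposited matrices hold raw UMI counts, which the authors made with Cell Ranger (7.1.0 per the file headers) from Chromium 3' v3 libraries aligned to mm10. Whether introns were counted is not given in the sources used here. The control matrix held 1518290 barcodes. Its cells were called by an order-of-magnitude threshold (4870 UMIs) plus a Monte Carlo test that set barcodes from 500 UMIs against the pool of those up to 100 UMIs (10000 draws, adjusted p limit 0.01), which gave 19155 cells. The DKO matrix held 14142 called cells and was used as deposited, so empty droplets were available for the control library only and stood for both. Cells over 20% mitochondrial UMIs (170 and 215) and doublets by Scrublet (434 and 198) were removed. Clustering used scanpy 1.11.5 with 2000 variable genes, 30 principal components and Leiden resolution 1.0, and myeloid clusters were clustered again at 1.0. Clusters were named for the class whose markers had the greatest mean log2 fold, given at least 3 markers raised 1.5-fold, and stayed unnamed where another class led its top 10 genes. Counts were summed per class and library. Levels carry exact Poisson intervals, ratios exact conditional binomial intervals with 1 count added, and shares Clopper-Pearson intervals after thinning to 2000 UMIs. A class was compared when each library had 50 cells of it. The limit on leaked RNA scales the empty-droplet profile by the hemoglobin share of a class. The ratio, its interval and the cell call were tested on simulated data. Promoters came from RefSeq and gene positions from GENCODE M21, and 32158 of 32285 gene identifiers matched. The factors, markers and gene lists were chosen with earlier results of these data known. The genes named were the 10 factors, the 3 most like each, the 2 largest changes of each list in a class, Ddx41 and Cgas, and the gene most like Spi1 is not reported here. Scripts ran under Python 3.11.15 (scipy 1.17.1, numpy 2.4.6, scikit-learn 1.9.0, pandas 2.3.3).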

Additional observations from a re-analysis of the deposited data

Results flagged for a closer look

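Cebpb differed in opposite directions between classes, with a log2 ratio of DKO over control of 0.84 in conventional dendritic cells and -1.21 in multipotent progenitors. The difference between the 2 ratios was not tested, since each rests on 1 library per genotype.

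A cluster led by Gata3 (25 control and 41 DKO cells) met no class's rule, was in no comparison and held 4 of the factors at levels, over both libraries together, whose counting interval lay above the level in T or NK cells. Its levels over both libraries were 33.2 CPM of Cebpe, 48.0 CPM of Gfi1, 66.4 CPM of Spi1 and 25.8 CPM of Klf4. In the separate libraries, Gfi1 had 5 control and 8 DKO UMIs, Cebpe 8 and 1, Spi1 10 and 8, and Klf4 3 and 4.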

How the results depend on the processing

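Under 11 alternatives, 2 of them chosen after the data were seen, the 62 log2 ratios were recomputed 641 times. In 161 of these the setting did not touch the value. In all, 591 (those 161 among them) were labelled the same, 4 weaker (under 1.5-fold), 3 stronger (past it) and 42 moved. The direction of 1 turned, Cebpb in conventional dendritic cells at -0.10 with doublets kept. The labels miss some crossings of 1.5-fold. Median-of-ratios scaling raised the lower pairs from 2 to 4, but none of its values was labelled stronger. The count of pairs past 1.5-fold was 6, with 4 higher and 2 lower. Median-of-ratios scaling gave 4 lower, and it lowered the ratios of a class by up to 0.19 (early neutrophils). Doublets kept gave 2 higher. Subtraction of leaked RNA gave 10 in all and 5 lower, and it took away a full empty-droplet profile in the Nrg1-led cluster. No minimum level gave 26 in all, 8 higher and 18 lower. A limit of 2-fold gave 2 in all, 1 higher and 1 lower. Cebpb in multipotent progenitors ranged from -5.84 to -0.65 and Spi1 there from -1.17 to -0.82, past 1.5-fold in the 9 alternatives that changed them. In Ly6C-low monocytes, outside these counts, resolution 2.0 moved the Irf8 ratio from -1.25 to -0.31. Doublets kept, the higher UMI threshold and resolution 2.0 left 9 classes to compare. With 1 library per genotype no replicate could be left out. No paired analysis was possible because the labels give 1 library per group and no replicate numbers.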
